A study of Mus musculus with 8 samples.

Results

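The genes described here are 38 genes of sterol and fatty acid synthesis, of their control by the SREBP transcription factors, and of cholesterol efflux under the LXR receptors, measured on microarrays in mouse CD4+ T cells. They were taken by gene symbol from a list chosen with earlier results of these data known. Shares of the members set against all genes are therefore descriptions only. The brightest transcript cluster (the set of probes for a locus) that carried a symbol alone stood for a gene, and 33 of the 38 had values, among 22180 named genes in all. The 33 comprised 16 of 18 sterol synthesis genes, 4 of 4 genes of SREBP control and sterol handling, 11 of 13 fatty acid synthesis genes and 2 of 3 efflux and LXR genes. Idi1, Scd2 and Acsl3 were represented solely by clusters shared with another symbol, and Acat2 and Nr1h2 were unnamed in the annotation used here, so these 5 were not analysed. All 33 passed the filter on dim genes, which kept the 13508 genes that reached the 40th percentile of an array on 2 or more arrays.

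The cells were T cells carrying CD4 but not CD25, sorted from spleens of C57BL/6 mice aged 6 to 8 weeks. They came from wild-type (WT) mice or from CCR2-/- mice, which lack the chemokine receptor CCR2, and were separated into CD45RBhigh cells, largely naive, and CD45RBlow cells, largely antigen-experienced. There were 2 arrays in each of the 4 groups of genotype and subset, numbered replicate 1 and replicate 2, and every group was stimulated with plate-bound antibodies to CD3 and CD28, so no resting cells were compared. The sample protocols gave 48 hours of stimulation and the series description 2 hours. The labels did not say whether CCR2 was lost in all cells or solely in T cells, how many mice gave an array, or which mice gave it. The p-values therefore cover no more than the spread between arrays.

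Cholesterol is built from acetyl-CoA through mevalonate, farnesyl diphosphate, squalene and lanosterol, and fatty acids are built from acetyl-CoA through malonyl-CoA, then elongated and desaturated. SREBP2 (Srebf2) chiefly drives the sterol genes and SREBP1 (Srebf1) the fatty acid genes. Insig1 holds both in the endoplasmic reticulum when sterols are plentiful, and LXR, sensing oxysterols, induces the cholesterol exporters Abca1 and Abcg1. T cells that begin to divide after stimulation need both pathways to make membrane, and SREBP activity is known to be required for their growth.

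The promoters were examined because the SREBPs are known to act with the factor NF-Y, which binds CCAAT. In the RefSeq promoter table (mouse build GRCm38.p6, from 250 bases before to 50 after each start), 30 of the 38 members had an entry. CCAAT on either strand was present for 14 of 15 sterol synthesis genes, 3 of 3 genes of SREBP control, 6 of 10 fatty acid synthesis genes and 0 of 2 efflux and LXR genes. It was present for 23 of 30 members in all (76.7%), against 41.1% of the 27025 genes in the table. The sterol regulatory element core TCACNCCAC, also searched on both strands, was found in 1 member, Hmgcs1, at position -137 from the start on the plus strand, against 1.44% of all genes. The E-box CACGTG was found in 6 of 30 members, against 8.09% of all genes. A match is only a description of the letters, and its absence from this window says nothing about the factor. The promoters below belong to 3 enzymes of the mevalonate steps, which held from 2 to 5 CCAAT matches, and to Acss2, 1 of the 2 members that differed between the subsets, with 1 match. Each runs 5′ to 3′ along its gene, with capitals marking CCAAT, its reverse complement ATTGG and, in Hmgcs1, the sterol regulatory element core. None of the marked matches overlapped another.
Hmgcs1, chr13:119690101-119690400, plus strand: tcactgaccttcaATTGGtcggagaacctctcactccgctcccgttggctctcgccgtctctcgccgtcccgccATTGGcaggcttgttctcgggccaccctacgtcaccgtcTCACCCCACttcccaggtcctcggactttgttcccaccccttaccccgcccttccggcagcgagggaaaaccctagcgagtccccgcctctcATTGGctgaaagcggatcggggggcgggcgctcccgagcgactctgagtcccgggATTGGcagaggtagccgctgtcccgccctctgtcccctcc
Mvk, chr5:114444019-114444318, plus strand: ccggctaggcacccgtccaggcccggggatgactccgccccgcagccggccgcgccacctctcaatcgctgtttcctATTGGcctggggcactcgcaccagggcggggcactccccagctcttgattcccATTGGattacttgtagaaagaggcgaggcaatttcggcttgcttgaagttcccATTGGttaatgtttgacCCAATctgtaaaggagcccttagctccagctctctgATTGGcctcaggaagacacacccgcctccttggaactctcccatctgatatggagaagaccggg
Mvd, chr8:122443373-122443672, minus strand: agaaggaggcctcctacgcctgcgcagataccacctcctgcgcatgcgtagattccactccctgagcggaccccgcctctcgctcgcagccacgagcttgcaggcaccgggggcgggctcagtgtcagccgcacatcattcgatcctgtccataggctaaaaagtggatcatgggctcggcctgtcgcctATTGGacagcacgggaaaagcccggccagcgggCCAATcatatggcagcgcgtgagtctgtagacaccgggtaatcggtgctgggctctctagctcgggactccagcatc
Acss2, chr2:155517793-155518092, plus strand: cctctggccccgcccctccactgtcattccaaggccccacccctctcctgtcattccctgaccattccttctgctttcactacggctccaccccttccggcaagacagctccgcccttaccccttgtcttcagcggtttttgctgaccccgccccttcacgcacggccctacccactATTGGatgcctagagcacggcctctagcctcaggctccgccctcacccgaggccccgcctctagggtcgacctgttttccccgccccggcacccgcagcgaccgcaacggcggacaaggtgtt
The mevalonate kinase gene Mvk held 4 of its 5 matches in the reverse orientation and HMG-CoA synthase Hmgcs1 all 4, whereas Mvd held 1 in each orientation.

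The deposited values were log2 intensities whose array medians lay between 4.92 and 5.05, and arrays of a group correlated at 0.984 to 0.994 over all clusters. T cell markers were high everywhere, with Cd3e at 12.3 to 12.8 and Cd4 at 11.5 to 11.7. Ccr2 itself was near the filter limit of 4.53 to 4.63 on every array, at 4.26 to 4.61 on WT arrays and 4.62 to 5.15 on CCR2-/- arrays. Its level therefore does not check the genotype labels, and every genotype direction below rests on them. Sex-linked genes separated the replicate numbers: Xist lay at 4.45 to 5.02 on the arrays numbered 1 and at 11.7 to 12.1 on those numbered 2. The 2 arrays of a group therefore did not come from the same set of mice. The Y-linked gene Kdm5d lay at 8.83 to 9.13 for number 1 and 7.58 to 7.78 for number 2. Uty lay at 9.40 to 9.59 and 8.19 to 8.59, and Eif2s3y at 9.85 to 9.97 and 8.47 to 9.11. Xist and the Y-linked clusters thus both had signal above the filter limit on the arrays numbered 2. Whether that signal came from Y-linked transcripts was not tested. The sets of 4 arrays with the same number also deviated together, so values are given for each number as well as pooled.

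The subset comparison, CD45RBlow minus CD45RBhigh averaged over the genotypes, asked which of these genes distinguish the 2 subsets after stimulation. Acsl6 and Acss2, which both attach coenzyme A to acids, were lower in CD45RBlow cells, and they were the 2 of 33 members that passed the test (limma, Benjamini-Hochberg over 13508 genes, adjusted p under 0.05). Of all genes tested, 1.93% passed as lower and 1.1% as higher, and 0 members passed as higher. Counting all members, passing or not, 27 of 33 differences were below 0, against 52.1% of all genes, and 16 of 33 were lower at an unadjusted p under 0.05, against 10.8%. The median difference was -0.23 over the members and -0.0078 over all genes tested. In RNA of bulk cells, fewer cells of a type and less RNA per cell cannot be told apart.

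**Figure D1:**
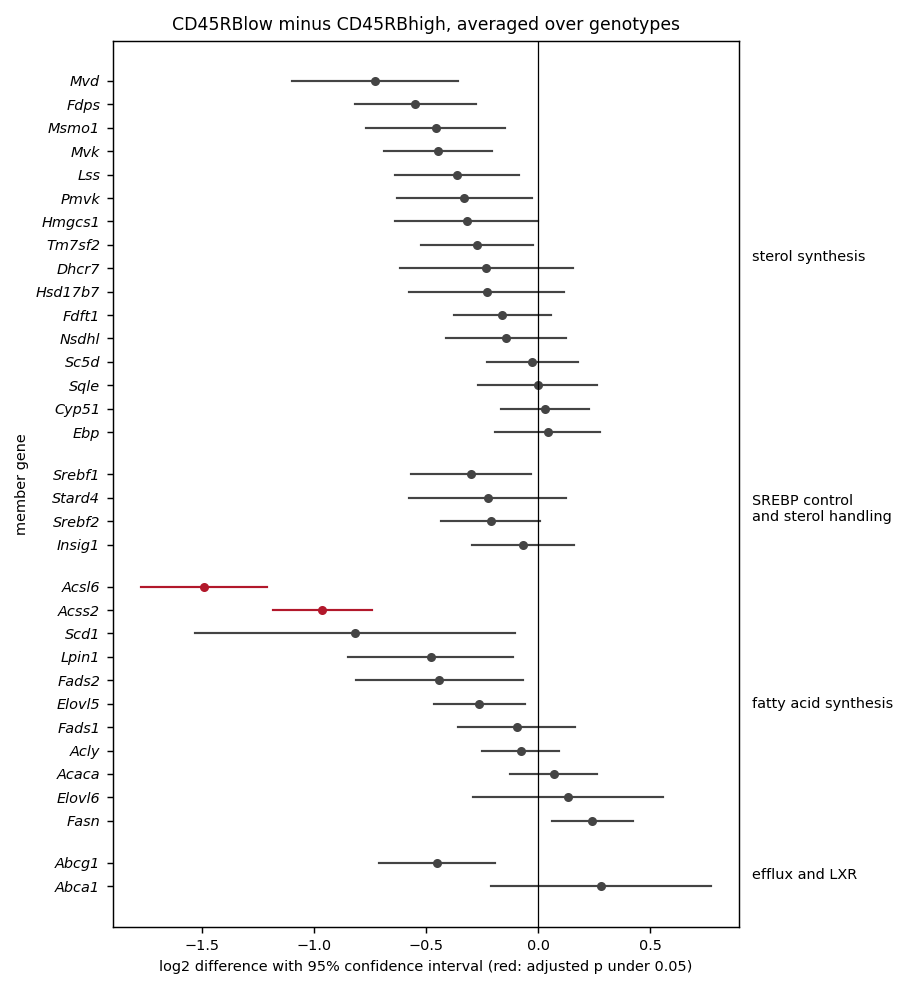
Log2 difference, CD45RBlow minus CD45RBhigh averaged over both genotypes, for the 33 members with values, ordered within each branch. Points are limma estimates from 8 arrays, lines are 95% confidence intervals, and red marks an adjusted p under 0.05. Acsl6 and Acss2 are the 2 red points, at -1.49 and -0.97, and Fasn, at 0.24, has its whole interval above 0.

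Acsl6, which activates long-chain fatty acids, measured 8.15 and 8.32 in WT CD45RBhigh cells, 6.70 and 7.14 in WT CD45RBlow cells, 8.45 and 8.60 in CCR2-/- CD45RBhigh cells, and 6.75 and 6.96 in CCR2-/- CD45RBlow cells (log2, replicates 1 and 2). All 4 CD45RBhigh arrays lay above all 4 CD45RBlow arrays, with the gap wider than the spread within any group. The difference was -1.49 (SE 0.12, 95% interval -1.77 to -1.21), a 2.81-fold lower level, with an adjusted p of 0.00349. Averaged with its other, dimmer cluster, the difference was -0.73, so the dimmer cluster added almost nothing and the lower level rests on the brighter one.

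Acss2, the cytosolic enzyme that makes acetyl-CoA from acetate, measured 6.43 and 6.42 in WT CD45RBhigh cells, 5.38 and 5.71 in WT CD45RBlow cells, 7.04 and 6.96 in CCR2-/- CD45RBhigh cells, and 5.90 and 6.00 in CCR2-/- CD45RBlow cells. The subsets did not overlap within a genotype or across all 8 arrays. The difference was -0.97 (SE 0.0945, 95% interval -1.19 to -0.74), a 1.95-fold lower level, with an adjusted p of 0.00611. Across the 7 alternative settings and the 8 fits that each left out an array, the adjusted p lay between 0.000776 and 0.0236 for Acsl6 and between 0.00349 and 0.0374 for Acss2.

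**Figure D2:**
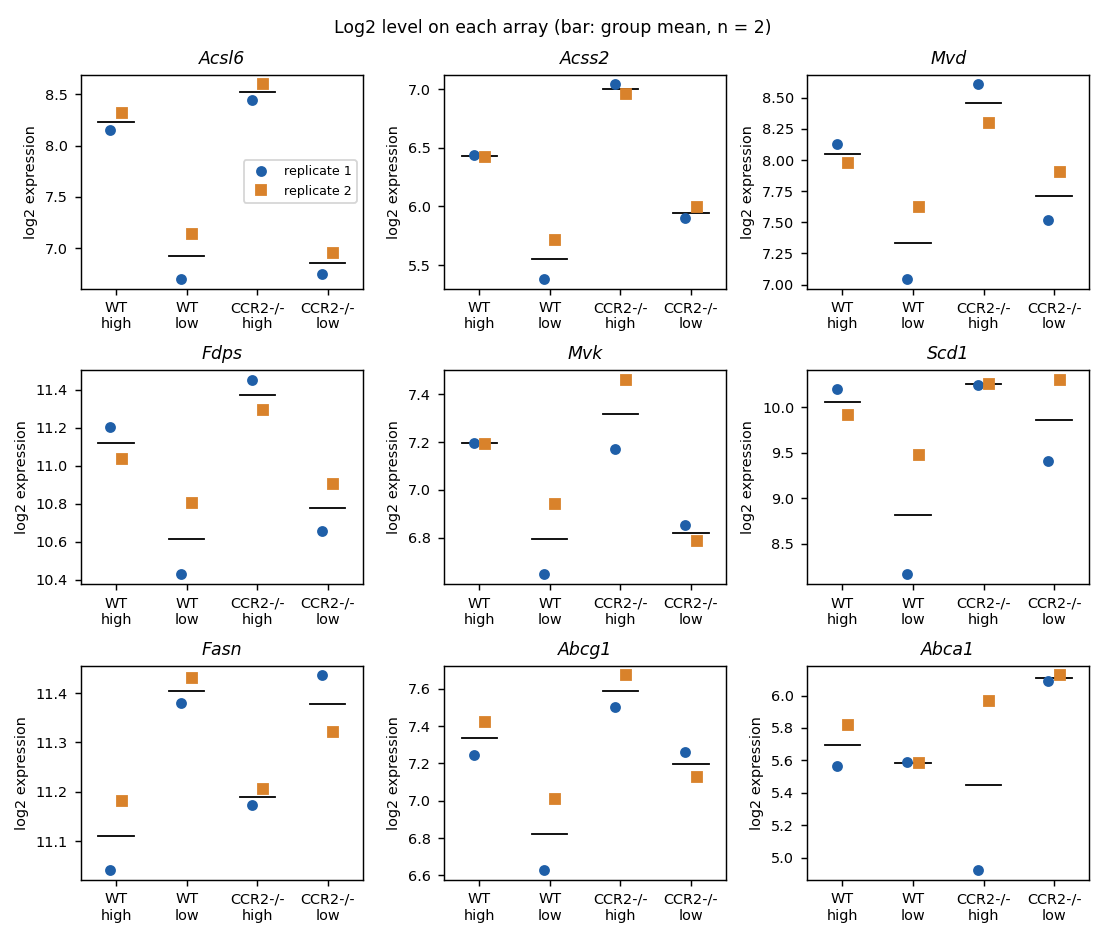
Log2 level of 9 members on each of the 8 arrays, by group, with replicate 1 as circles, replicate 2 as squares and a bar at the group mean (n = 2). Acsl6 and Acss2 separate the subsets on every array, whereas the WT CD45RBlow array numbered 1 stands far below its partner for Scd1 (8.16 against 9.47) and Mvd (7.05 against 7.62).

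In the sterol branch 0 of 16 genes passed, 14 of 16 differences were below 0 and the median was -0.25. Fdps, farnesyl diphosphate synthase at the branch point to sterols and prenyl groups, measured 11.21 and 11.04 in WT CD45RBhigh, 10.43 and 10.80 in WT CD45RBlow, 11.45 and 11.30 in CCR2-/- CD45RBhigh, and 10.66 and 10.90 in CCR2-/- CD45RBlow cells. Its CD45RBlow arrays all lay below its CD45RBhigh arrays, and the difference of -0.55 (SE 0.115) had an adjusted p of 0.0535. Mvd, which makes isopentenyl diphosphate, measured 8.13 and 7.97 in WT CD45RBhigh, 7.05 and 7.62 in WT CD45RBlow, 8.61 and 8.30 in CCR2-/- CD45RBhigh, and 7.52 and 7.90 in CCR2-/- CD45RBlow cells. These groups did not overlap either, and the difference was -0.73 (SE 0.158, adjusted p 0.0585). Mvk, which phosphorylates mevalonate, showed -0.45 (SE 0.103, adjusted p 0.0671), again with no overlap.

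With the replicate number as a block, which the arrays' joint deviations warranted, 6 of 33 members passed as lower, against 3.66% of all genes. These were Acsl6, Acss2, Fdps (adjusted p 0.0437), Mvd (0.0459), Mvk (0.0428) and the exporter Abcg1 (0.0477). The subsets did not overlap over all 8 arrays, with CD45RBlow lower, for 7 of 33 members, namely Acsl6, Acss2, Fdps, Mvd, Mvk, Lss and Elovl5, against 8.13% of all genes. The opposite held for 1 of 33, Fasn, against 6.13%.

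Msmo1, which removes methyl groups from lanosterol products, showed -0.46 (SE 0.133, adjusted p 0.124), and Lss, lanosterol synthase, showed -0.36 (SE 0.118, adjusted p 0.157). Pmvk, the kinase after Mvk, showed -0.33, Hmgcs1 at the entry showed -0.32, and the sterol reductase Tm7sf2 showed -0.27, with adjusted p-values of 0.232, 0.276 and 0.235. Squalene epoxidase Sqle, a rate-controlling step, had a 95% interval of -0.27 to 0.26, and lanosterol demethylase Cyp51 an interval of -0.17 to 0.23, so a difference of the size seen for Mvd lay outside both. Dhcr7, Hsd17b7, Fdft1, Nsdhl, Sc5d and Ebp had differences between -0.23 and 0.04, none of which passed.

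All 4 genes of SREBP control and sterol handling had differences below 0, with a median of -0.22, and none passed. Srebf1 measured 8.02 and 8.13 in WT CD45RBhigh, 7.59 and 7.96 in WT CD45RBlow, 8.13 and 8.34 in CCR2-/- CD45RBhigh, and 7.82 and 8.05 in CCR2-/- CD45RBlow cells. CD45RBlow was lower in 4 of 4 pairs of the same genotype and number, but the subsets overlapped, and the difference was -0.30 (SE 0.115, adjusted p 0.221). Srebf2 was also lower in 4 of 4 pairs, by -0.21 (SE 0.0943, adjusted p 0.295). Insig1 showed -0.07 and the sterol carrier Stard4 -0.23, with adjusted p-values of 0.798 and 0.499.

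In the fatty acid branch 2 of 11 genes passed as lower and 0 as higher, and the median was -0.26. Fasn, fatty acid synthase, measured 11.04 and 11.18 in WT CD45RBhigh, 11.38 and 11.43 in WT CD45RBlow, 11.17 and 11.21 in CCR2-/- CD45RBhigh, and 11.44 and 11.32 in CCR2-/- CD45RBlow cells. Every CD45RBlow array lay above every CD45RBhigh array, and the difference of 0.24 (SE 0.0766) had an adjusted p of 0.148. Its neighbours in the pathway, citrate lyase Acly and acetyl-CoA carboxylase Acaca, showed -0.08 and 0.07, with intervals of -0.25 to 0.09 and -0.13 to 0.26.

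Among the desaturases and elongases none passed. Scd1, the main stearoyl-CoA desaturase, measured 10.20 and 9.91 in WT CD45RBhigh, 8.16 and 9.47 in WT CD45RBlow, 10.24 and 10.26 in CCR2-/- CD45RBhigh, and 9.41 and 10.30 in CCR2-/- CD45RBlow cells. The CCR2-/- CD45RBlow array numbered 2 lay above all 4 CD45RBhigh arrays and the other 3 CD45RBlow arrays lay below them, and the difference of -0.82 (SE 0.305) had an adjusted p of 0.211. Fads2, a desaturase of polyunsaturated fatty acids, showed -0.44 (adjusted p 0.196), the elongase Elovl5 -0.26 (0.159) and the phosphatidate phosphatase Lpin1 -0.48 (0.158). Elovl6, which elongates palmitate, showed 0.13 and Fads1 -0.10, with adjusted p-values of 0.783 and 0.737.

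The 2 exporters had differences of opposite sign, and neither passed. Abcg1 measured 7.25 and 7.42 in WT CD45RBhigh, 6.63 and 7.01 in WT CD45RBlow, 7.50 and 7.67 in CCR2-/- CD45RBhigh, and 7.26 and 7.13 in CCR2-/- CD45RBlow cells. It was lower in CD45RBlow in 4 of 4 pairs, with a difference of -0.45 (SE 0.111, adjusted p 0.0811). Abca1 measured 5.56 and 5.82 in WT CD45RBhigh, 5.59 and 5.59 in WT CD45RBlow, 4.92 and 5.97 in CCR2-/- CD45RBhigh, and 6.09 and 6.12 in CCR2-/- CD45RBlow cells. The subsets overlapped, and the difference of 0.28 (SE 0.21, adjusted p 0.559) became 0.54 with an adjusted p of 0.0364 when the CCR2-/- CD45RBhigh array numbered 2 was left out.

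Within each genotype the subset difference rested on 2 arrays against 2. In CCR2-/- cells Acsl6 differed by -1.67 (SE 0.17, adjusted p 0.0194) and Acss2 by -1.05 (SE 0.134, adjusted p 0.0352), 2 of 33 members against 0.192% of all genes passing as lower. In WT cells 0 of 33 members passed, against 0.0444% of all genes as lower. There Acsl6 differed by -1.31 (SE 0.17, adjusted p 0.061) and Acss2 by -0.88 (SE 0.134, adjusted p 0.0913). With the replicate number as a block both passed in WT cells, at adjusted p-values of 0.0131 and 0.042, against 0.489% of all genes. The CCR2-/- call of Acsl6 was kept in 6 of the 8 fits without an array and lost without the CCR2-/- CD45RBlow array numbered 1 (adjusted p 0.192) or 2 (0.0671). That of Acss2 was lost in all 8, whichever array was left out, with adjusted p from 0.0508 to 0.272, and with array weights both were lost (0.0769 and 0.150).

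The other members with the smallest p in each branch within a genotype did not pass. In WT cells Mvd showed -0.72 and Fdps -0.51 (adjusted p 0.349 and 0.371), Srebf1 -0.30 and Insig1 -0.21 (0.687 and 0.784), and the exporters Abcg1 -0.52 and Abca1 -0.11 (0.336 and 0.969). In CCR2-/- cells Fdps showed -0.59 and Mvk -0.50 (0.194 and 0.219), Srebf2 -0.27 and Srebf1 -0.30 (0.487 and 0.511), and Abcg1 -0.39 and Abca1 0.66 (0.369 and 0.428).

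The genotypes were compared directly through the interaction, the subset difference in CCR2-/- cells minus that in WT cells, for which 0 of 33 members and 0% of all genes passed. At an unadjusted p under 0.05 there were again 0 members, against 1.18% of all genes. The interaction was -0.36 for Acsl6 (95% interval -0.92 to 0.21) and -0.17 for Acss2 (-0.61 to 0.27). The members with the smallest p were Abca1, at 0.77 (-0.21 to 1.75), and Fads2, at 0.57 (-0.17 to 1.32). The smallest p-values of the other branches belonged to Sc5d and Pmvk, at 0.19 and 0.26, and to Insig1 and Srebf2, at 0.28 and -0.11, and Abcg1 stood at 0.12, all with adjusted p-values of 1.

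The replicate numbers gave different pictures of the subset comparison. Among the arrays numbered 1, the sterol genes lay below 0 for 15 of 16 in WT and 14 of 16 in CCR2-/- cells, with medians of -0.50 and -0.45. Of the 13508 genes tested, 7101 and 6683 lay below 0 in the same 2 pairs. Among those numbered 2 the same medians were -0.07 and 0.01. For all 33 members they were -0.44 and -0.32 for number 1, and -0.13 and 0.0060 for number 2.

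**Figure D3:**
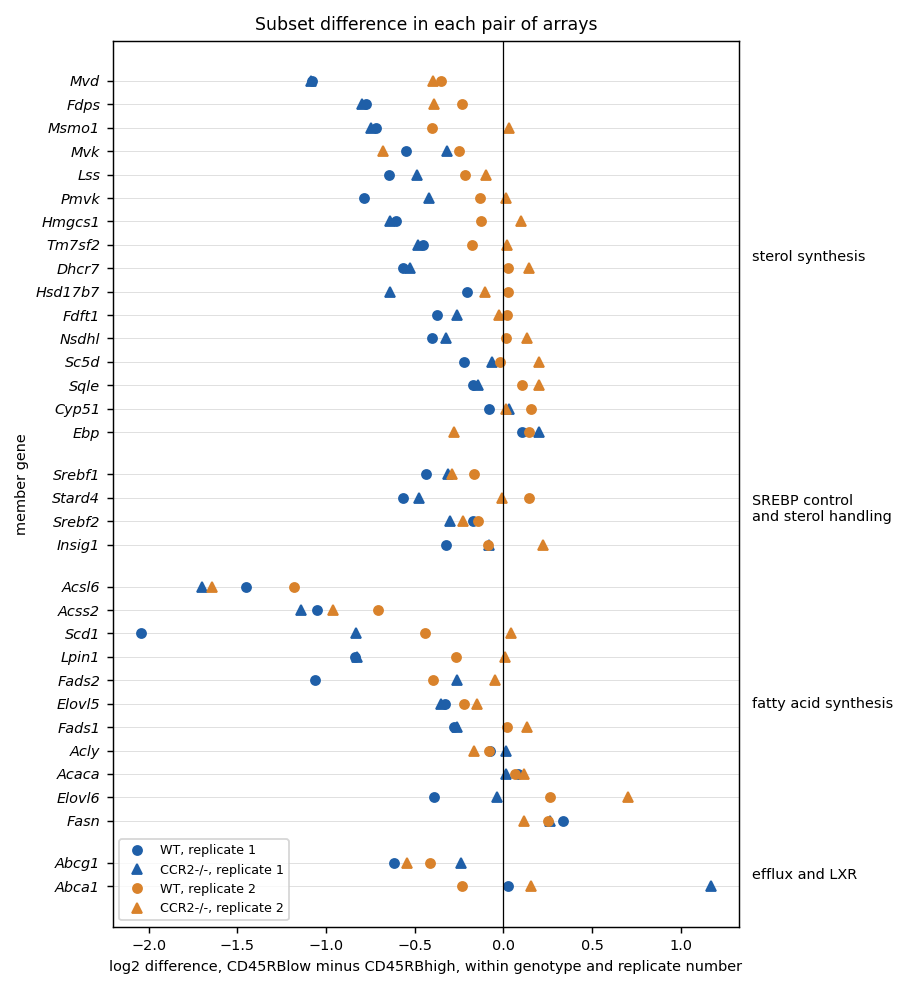
Log2 difference, CD45RBlow minus CD45RBhigh, in each of the 4 pairs of arrays with the same genotype and replicate number, for the 33 members. Blue marks replicate 1, orange replicate 2, circles WT and triangles CCR2-/-. For Mvd both blue points lie near -1.08 and both orange points between -0.40 and -0.35, whereas the 4 points of Acsl6 all lie below -1.

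In a fit with a separate subset difference for each number, added after the values of each array had been seen and with 2 residual degrees of freedom, 10 of 33 members passed as lower for number 1, against 3.63% of all genes. They were Hmgcs1 (-0.62), Pmvk (-0.60), Mvd (-1.08), Fdps (-0.79) and Msmo1 (-0.73) of the sterol branch, and Acss2 (-1.10), Scd1 (-1.44), Fads2 (-0.66), Acsl6 (-1.57) and Lpin1 (-0.83) of the fatty acid branch. For number 2 the members that passed were Acsl6 (-1.41) and Acss2 (-0.83), 2 of 33 against 1.71% of all genes.

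The difference between the numbers was itself tested, and 0 of 33 members and 0% of all genes passed after adjustment. At an unadjusted p under 0.05, 13 of 33 members had a less negative or more positive subset difference for number 2, against 4.87% of all genes, and 27 of 33 lay above 0, against 47.9%. Scd1 had 1.24 (SE 0.205, adjusted p 0.179), Mvd 0.71 (SE 0.161, adjusted p 0.276), Lpin1 0.70 (SE 0.158, adjusted p 0.274) and Elovl6 0.69 (SE 0.159, adjusted p 0.278). Acsl6, with 0.16 (SE 0.159, adjusted p 0.816), and Acss2, with 0.26 (SE 0.16, adjusted p 0.678), had smaller estimates.

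Markers of other cell types also differed between the subsets and the numbers. B cell markers, 10 of 11 on the array and 8 above the filter, had a median subset difference of -0.65 in WT and -1.07 in CCR2-/- cells for number 1, and -0.08 and -0.19 for number 2. Cd79a, Ms4a1, Blnk and Cd22 passed the filter only through the CD45RBhigh arrays numbered 1, where they were higher. The medians, and their contrast between the numbers, are therefore not independent of the filter. Their summed level (log2 of the summed intensities) spanned 10.8 to 11.1 in WT CD45RBhigh, 10.0 to 10.2 in WT CD45RBlow, 10.99 to 11.25 in CCR2-/- CD45RBhigh and 9.97 to 10.1 in CCR2-/- CD45RBlow cells. Fcer2a, a B cell surface receptor, measured 6.996 and 7.906 on the CD45RBhigh arrays numbered 1 and 4.81 to 5.88 on the other 6, while the B cell factor Pax5 and the receptor Cr2 stayed under the filter limit, at 3.95 to 4.44 and 3.79 to 4.10. Ighm, the heavy chain of IgM and listed here as a B cell marker, measured 10.47 and 10.999 in WT CD45RBhigh, 9.69 and 9.92 in WT CD45RBlow, 10.86 and 10.82 in CCR2-/- CD45RBhigh, and 9.77 and 9.64 in CCR2-/- CD45RBlow cells. It was the 1 of 8 B cell markers that passed as lower, by -1.03 (SE 0.129, adjusted p 0.0128), and the subsets did not overlap over the 8 arrays. With the number as a block Fcer2a passed as well (adjusted p 0.0446). Ighm was the brightest B cell marker on every array, so it weighed most in their summed level. On CD45RBhigh arrays, Cd79a, Ms4a1 and Cd22 lay at 4.62 to 5.86 for number 1 and, under the filter limit, at 3.90 to 4.41 for number 2. Ighm did not follow them, at 10.47 and 10.86 for number 1 and 10.999 and 10.82 for number 2. Whether its call and the summed level reflect B cell content was not tested. Of the 8 differences 7 lay below 0 and that of Ebf1 above. Ebf1 measured 5.44 and 4.59 in WT CD45RBhigh and 5.10 and 5.23 in WT CD45RBlow cells. In CCR2-/- cells it measured 4.63 and 4.47 in CD45RBhigh and 5.03 and 5.31 in CD45RBlow. Both CD8 T cell markers, Cd8a and Cd8b1, were lower in CD45RBlow in 4 of 4 pairs. The pair medians were -0.66 and -0.92 for number 1 and -0.34 and -0.27 for number 2. With the number as a block 1 of the 2 passed as lower. Cd8a lay near the filter limit on all arrays, at 4.39 to 4.91, and Cd8b1 at 6.97 to 8.78, so Cd8b1 made up most of their summed level. The sum spanned 7.96 to 8.34 in WT CD45RBhigh, 7.23 to 7.45 in WT CD45RBlow, 7.91 to 8.87 in CCR2-/- CD45RBhigh and 7.49 to 7.56 in CCR2-/- CD45RBlow cells. The macrophage markers Csf1r, Adgre1 and Lyz2 stayed between 3.75 and 4.46, under the filter limit, and 2 of the 8 such markers on the array were above it. Of these, Cd68, a lysosomal protein of macrophages, measured 7.62 and 7.16 in WT CD45RBhigh, 7.54 and 7.05 in WT CD45RBlow, 8.55 and 7.68 in CCR2-/- CD45RBhigh, and 7.41 and 6.88 in CCR2-/- CD45RBlow cells. It was lower in CD45RBlow in 4 of 4 pairs, by -0.53 (SE 0.234, adjusted p 0.292), and passed with the number as a block (0.0244). The other, Mertk, showed 0.06 (adjusted p 0.801). The summed macrophage level spanned 8.07 to 8.36 in WT CD45RBhigh, 8.04 to 8.33 in WT CD45RBlow, 8.40 to 8.9998 in CCR2-/- CD45RBhigh and 7.97 to 8.24 in CCR2-/- CD45RBlow cells. The part of these cells in the differences of the lipid genes was not tested. Cell cycle genes, 21 of 22 on the array, had array means of 10.8 to 10.9 in all groups, and 0 of 21 passed.

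**Figure D4:**
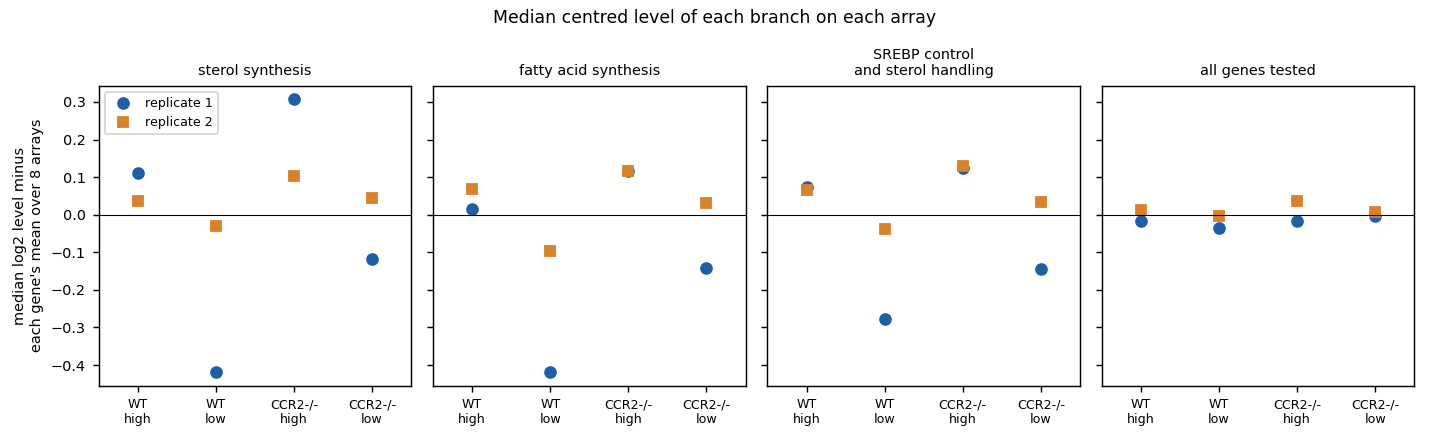
Median over the genes of a branch of the log2 level minus each gene's mean over the 8 arrays, on each array, for the sterol synthesis (16), fatty acid synthesis (11) and SREBP control (4) genes and for all 13508 genes tested, with replicate 1 as circles and replicate 2 as squares. The WT CD45RBlow array numbered 1 is the lowest in the first 3 panels, at -0.42 for both the sterol and the fatty acid genes, while all genes tested lie between -0.035 and 0.036.

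The WT CD45RBlow array numbered 1 had the lowest value of the 8 for 27 of 33 members, against 20.6% of all genes tested. The CCR2-/- CD45RBhigh array numbered 1 had the highest value for 15 of 33, against 16.2%. Hmgcs1 shows the pattern: it measured 10.77 and 10.65 in WT CD45RBhigh, 10.17 and 10.52 in WT CD45RBlow, 11.03 and 10.67 in CCR2-/- CD45RBhigh, and 10.39 and 10.77 in CCR2-/- CD45RBlow cells. Its values numbered 1 spread over a wider range than those numbered 2. Without the WT CD45RBlow array numbered 1 the subset differences of Acsl6 and Acss2 were -1.38 and -0.88, with adjusted p-values of 0.0192 and 0.0296, those of Fdps and Mvd were -0.46 and -0.58, and 25 of 33 members lay below 0.

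The genotype comparison, CCR2-/- minus WT averaged over the subsets, asked whether loss of CCR2 went with a change in these genes. None of the 33 members passed, nor did any of the 13508 genes (0%), and 5 of 33 members were higher at an unadjusted p under 0.05, against 2.64% of all genes. The direction was nonetheless shared: 31 of 33 differences were above 0, against 57.2% of all genes, and 15 of 33 members were higher in CCR2-/- cells in 4 of 4 pairs, against 12.6%. With each array centred on its median, 26 of 33 members and 39.2% of all genes lay above 0. Without the WT CD45RBlow array numbered 1 the count was also 26 of 33, against 54.1% of all genes, and the members' median difference went from 0.15 to 0.069.

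**Figure D5:**
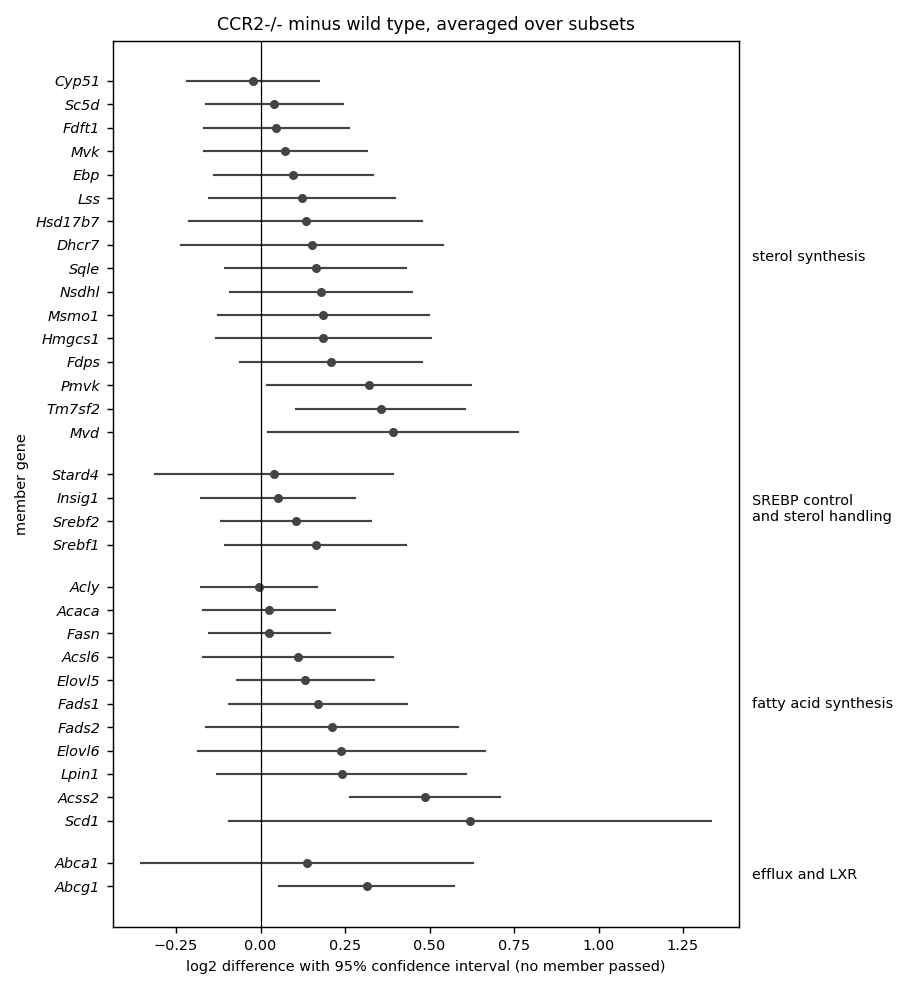
Log2 difference, CCR2-/- minus WT averaged over both subsets, for the 33 members with values, ordered within each branch. Points are limma estimates from 8 arrays and lines are 95% confidence intervals. Most points lie right of 0, Acss2 has the highest interval relative to its width (0.26 to 0.71), and no member passed after adjustment.

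Acss2 had the smallest p among the members, with 0.49 (SE 0.0945, 95% interval 0.26 to 0.71, unadjusted p 0.00115, adjusted p 0.94). Its CCR2-/- arrays lay above the WT arrays of the same subset in 4 of 4 pairs, and the genotypes overlapped only across subsets. The other 4 at an unadjusted p under 0.05 were Tm7sf2 at 0.36, Mvd at 0.39, Pmvk at 0.32 and Abcg1 at 0.31, each higher in 4 of 4 pairs and each with an adjusted p of 0.94. Scd1 had the greatest estimate, 0.62, with an interval of -0.09 to 1.33. The medians were 0.16 for the sterol genes, 0.17 for the fatty acid genes, 0.08 for the SREBP control genes and 0.23 for the 2 exporters, against 0.020 for all genes tested. Srebf1 and Srebf2 showed 0.16 and 0.10, with adjusted p-values of 0.94, and Abca1 showed 0.14 (adjusted p 0.962). Acly and Cyp51 were the 2 members not above 0, and the interval of Acly was -0.18 to 0.17.

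Within the subsets 0 of 33 members passed in either comparison, against 0% of all genes in CD45RBhigh and 0% in CD45RBlow cells. Among CD45RBhigh arrays both CCR2-/- values lay above both WT values for 15 of 33 members, against 15.2% of all genes. Acss2 differed there by 0.57 (SE 0.134, unadjusted p 0.00326, adjusted p 1), Tm7sf2 by 0.31 and Mvd by 0.40. Srebf2 and Srebf1 each showed 0.16, Acsl6 0.29, Abcg1 0.25 and Abca1 -0.25, also with adjusted p-values of 1. Among CD45RBlow arrays this held for 7 of 33, against 18.7%, although 28 of 33 differences were above 0. In that subset Acss2 differed by 0.40, Tm7sf2 by 0.40, Pmvk by 0.45, Abcg1 by 0.38 Scd1 by 1.04 (SE 0.431), Insig1 by 0.19, Srebf1 by 0.16 and Abca1 by 0.52, all with adjusted p-values of 1. In the pair numbered 1 of CD45RBlow arrays all 33 members were higher in CCR2-/- cells, with a median of 0.23, as were 8244 of the 13508 genes tested and 20 of 21 cell cycle genes (median 0.10). In the pair numbered 2 the count was 22 of 33, with a median of 0.11, against 7044 of the 13508 genes and 13 of 21 cell cycle genes. The subset and genotype comparisons use the same 8 arrays, so an array that stands low, such as the WT CD45RBlow array numbered 1, enters both.

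Some markers of other cells also had higher values in CCR2-/- cells, and none passed. Of 7 neutrophil markers 2 were above the filter, and both were higher in CCR2-/- cells in 4 of 4 pairs at dim levels. The others, S100a8, Mpo, Elane, Camp and Ltf, stayed under the filter limit on all 8 arrays, at 3.94 to 4.44. S100a9, a calcium-binding protein of neutrophils, lay at 4.69 to 5.06 on WT and 5.00 to 5.27 on CCR2-/- arrays, with a difference of 0.28 (SE 0.0899, unadjusted p 0.0164, adjusted p 0.94). Ly6g, a neutrophil surface protein, lay at 4.42 to 4.78 and 4.58 to 5.14, with a difference of 0.27 (SE 0.118, unadjusted p 0.0528, adjusted p 0.94). The summed neutrophil level spanned 7.135 to 7.136 in WT CD45RBhigh, 7.17 to 7.24 in WT CD45RBlow, 7.13 to 7.31 in CCR2-/- CD45RBhigh and 7.32 to 7.34 in CCR2-/- CD45RBlow cells. Among CD45RBhigh arrays, 7 of 8 B cell markers were higher in CCR2-/- cells in the pair numbered 1 (median 0.49) and 4 of 8 in the pair numbered 2 (median 0.021). Averaged over the subsets, 2 of 2 macrophage markers (median 0.17), 2 of 2 CD8 T cell markers (0.14) and 2 of 2 NK cell markers (0.07) were higher. Of the dendritic cell markers 1 of 3 was higher (median -0.0030). Cd68 was higher in CCR2-/- cells in both CD45RBhigh pairs and lower in both CD45RBlow pairs. The part of these cells in the genotype differences was not tested.

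Other genes of the same pathways were taken from lists by role. Of 25 further sterol genes 17 were tested and 0 passed in the subset comparison, with a median of -0.05. Npc2, which hands cholesterol out of lysosomes, showed -0.59 (SE 0.134, adjusted p 0.0647; with the number as a block, 0.0469), and Lipa, lysosomal acid lipase, showed -0.32 (adjusted p 0.149). Of 36 further fatty acid and lipid genes 27 were tested, 1 passed as higher and 2 as lower. Their median was 0.014 and 14 of 27 differences lay above 0, so the members' shift below 0 was not seen in this list. Slc25a1, the mitochondrial carrier that exports the citrate used by Acly, was lower by -0.56 (SE 0.103, adjusted p 0.0383) and the elongase Elovl7 by -0.82 (SE 0.147, adjusted p 0.0344). Dgat1, which completes triglycerides, was higher by 0.57 (SE 0.107, adjusted p 0.0389). For each of these 3 the subsets did not overlap over the 8 arrays.

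Of 18 further efflux and LXR genes 10 were tested, with a median of -0.10 in the subset comparison. Abca7, a lipid transporter related to Abca1, was lower in CD45RBlow cells by -0.50 (SE 0.0798, adjusted p 0.027). Cd5l, a known LXR target of macrophages, was higher there by 0.74 (SE 0.115, adjusted p 0.0246) at dim levels. Its CD45RBhigh values, 4.08 to 4.29, were under the filter limit of 4.53 to 4.63, and its CD45RBlow values were 4.67 to 5.12. Cd5l thus entered the test only through the subset in which it was higher, so its call is not independent of the filter. In the genotype comparison 0 genes of the 3 lists passed. The medians were 0.022 for the further sterol genes (10 of 17 above 0) and 0.0079 for the further fatty acid and lipid genes (16 of 27). For the further efflux and LXR genes the median was 0.15 (8 of 10), against 0.020 for all genes tested. The LXR target Mylip showed 0.36 (unadjusted p 0.0174) and the receptor partner Rxrb 0.32 (unadjusted p 0.048), both with an adjusted p of 0.94.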

How the data were processed

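Total RNA (200 ng an array) from 8 samples was labelled and hybridised to Affymetrix arrays, per the labels' protocols. The deposited log2 values of 41034 transcript clusters were normalized by the authors with RMA in Partek, per the submitters' processing notes; versions were not given in the sources used here. Platform annotation gave 23521 clusters a single symbol, 1814 several and 15699 none, and 23328 entries matched RefSeq GRCm38.p6 by gene number with 0 symbols changed. A gene was represented by its brightest single-symbol cluster. Group means were fitted with limma 3.58.1 in R 4.3.3 (lmFit and eBayes, 4 residual degrees of freedom, two-sided, Benjamini-Hochberg over 13508 genes), with subset, genotype and interaction contrasts, 7 in all, and the script was tested on simulated data. The number of arrays limits the precision.

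Titles ending in 2 were taken as replicate 2 and the others as replicate 1. The deviations of replicate 2 from replicate 1 correlated at 0.11 to 0.53 over the 6 pairs of groups, all above the limit of 0.1. The replicate number was therefore also fitted as a block, beside the main fit, which had no block and gave the values printed unless stated. The blocked value is printed where it changes the call of a member. The members, the lists and the tests were chosen with earlier results of these data known. The text names every member that passed, the 2 with the smallest p in each branch and comparison, and values of others by branch. Of other lists it names genes that passed and those with the smallest p, and of marker lists a few defining genes chosen after their values were seen. Promoters came from RefSeq, GRCm38.p6. The alternatives were 7 settings and 8 fits that each left out an array, plus the fit by replicate number, which was added after seeing the data.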

Additional observations from a re-analysis of the deposited data

How the results depend on the processing

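The calls of Acsl6 and Acss2 in the averaged subset comparison held in all 7 alternative settings and all 8 fits without an array. The number of members called there was 2, but 6 with the replicate block and 2 to 4 across the fits without an array. In WT cells it was 0, but 2 with the replicate block, 2 with array weights, 1 with arrays centred on their medians, 1 with an intensity trend in the prior variance and 0 to 1 without an array. In CCR2-/- cells it was 2, but 0 with array weights and 0 to 2 without an array. In the genotype comparisons and the interaction it was 0 under every alternative run. Over all genes tested the averaged subset comparison gave 409 calls, 758 with the replicate block and 39 to 524 without an array, the lowest without the WT CD45RBlow array numbered 1.

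Leaving out an array moved several branch medians by more than the spread between replicates. For the subset difference in WT cells the sterol median ranged from -0.49 to -0.13 and the SREBP control median from -0.34 to -0.087. In CCR2-/- cells the fatty acid median ranged from -0.32 to 0.038 and the efflux median from -0.17 to 0.44. For the genotype difference in CD45RBlow cells the sterol median ranged from 1.5e-05 to 0.36, the SREBP control median from -0.036 to 0.24 and the fatty acid median from 0.061 to 0.40; the efflux median in CD45RBhigh cells ranged from -0.30 to 0.31. For the interaction the sterol median ranged from -0.082 to 0.24, the SREBP control median from -0.20 to 0.18 and the efflux median from 0.14 to 0.75. The fatty acid median of the interaction, from -0.074 to 0.13, did not move by more than that spread. Nor did the averaged efflux median of the subset comparison, from -0.24 to 0.065. Of these medians, those whose range spans 0 turned sign.

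Among the named genes, signs turned for 5 values when an array was left out. The genotype difference of Srebf1 in CD45RBlow cells ranged from -0.026 to 0.35 and the interaction of Abcg1 from -0.066 to 0.31, both lowest without the WT CD45RBlow array numbered 1. For Abca1 the averaged genotype difference ranged from -0.12 to 0.40, the genotype difference in CD45RBhigh cells from -0.77 to 0.28 and the subset difference in WT cells from -0.23 to 0.024. Fdps, not called in the averaged subset comparison, was called with the filter at the 50th percentile (adjusted p 0.0493), with the trend (0.0347) and with the block (0.0437). The cause of these changes was not tested. With 2 arrays a group, and the replicate numbers differing in sex-linked genes, small differences could not be resolved.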
